A study of Mus musculus with 3 samples.

Results

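Goblet cells of the mouse intestinal epithelium were examined in single-cell RNA sequencing (scRNA-seq) of 3 libraries, 2 from Arid3a cKO animals and 1 from a WT animal. A cell counted as a goblet cell when at least 1% of its unique molecular identifiers (UMIs, each standing for 1 captured transcript) came from the 7 genes Muc2, Clca1, Fcgbp, Zg16, Tff3, Agr2 and Spink4, and under 0.3% from the 8 hormone cell genes Chga, Chgb, Cck, Gip, Sct, Ghrl, Tph1 and Cpe. Only barcodes with at least 1000 genes detected and at most 15% of UMIs from mitochondrial genes were considered. The members were thus selected on the measured levels of these 15 genes. They were 463 of 5594 kept cells. Arid3a cKO 1 held 140 members among 2134 cells, Arid3a cKO 2 held 147 among 1550, and the WT library 176 among 1910.

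The cKO animals carried VillinCreERT2 and Arid3a fl/fl, in which tamoxifen switches on a Cre recombinase driven by the Villin promoter in epithelial cells and removes the floxed gene. The WT animal carried VillinCreERT2 alone and received tamoxifen as well, so recombinase and drug were shared by all groups. Animals were injected at 8 to 10 weeks of age and harvested 1 month after the first injection. Crypt cells were sorted as living and Epcam-positive, with lymphocytes (CD45) and endothelial cells (CD31) removed, before 10x 3′ library preparation. Another WT replicate of the study was not analysed here, so the spread between samples is known for the cKO group only, and nothing was measured on whether WT goblet cells vary in the same way.

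Goblet cells are the mucus-secreting cells of the gut. They arise from crypt progenitors that escape Notch signalling and switch on the transcription factor Atoh1, mature under Spdef, and fill their apical side with granules of the gel-forming mucin Muc2, which is folded and joined into polymers in the endoplasmic reticulum and heavily glycosylated in the Golgi. Released mucus carries further proteins such as the lectin-like Zg16, the trefoil peptide Tff3, the protease Clca1 and the Fc-binding protein Fcgbp, and keeps bacteria away from the epithelium. The comparison of cKO and WT goblet cells asks whether loss of Arid3a changes the state of these cells.

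Sequences of several genes described below follow, and a link of the promoter letters to the differences was not tested. The antimicrobial lectins Reg3b and Reg3g and the class II antigen presentation genes H2-Aa and H2-Eb1 were lower in both cKO libraries, and their RefSeq promoters (GRCm38.p6, 250 bases before to 50 after the annotated start, 5′ to 3′ on the strand of the gene) are shown. They lie at chr6:78370635-78370934 on the plus strand (Reg3b), chr6:78468825-78469124 on the minus strand (Reg3g), chr17:34287774-34288073 on the minus strand (H2-Aa) and chr17:34305617-34305916 on the plus strand (H2-Eb1). Capitals mark matches, on either strand, to TTCNNNGAA, the palindrome read by STAT factors, or to CCAAT, the box found in many class II promoters.
Reg3b: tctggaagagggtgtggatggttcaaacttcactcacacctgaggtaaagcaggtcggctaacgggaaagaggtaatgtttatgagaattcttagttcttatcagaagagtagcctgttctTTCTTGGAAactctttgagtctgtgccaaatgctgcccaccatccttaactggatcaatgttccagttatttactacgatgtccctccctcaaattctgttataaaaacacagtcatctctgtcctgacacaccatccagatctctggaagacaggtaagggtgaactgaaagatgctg
Reg3g: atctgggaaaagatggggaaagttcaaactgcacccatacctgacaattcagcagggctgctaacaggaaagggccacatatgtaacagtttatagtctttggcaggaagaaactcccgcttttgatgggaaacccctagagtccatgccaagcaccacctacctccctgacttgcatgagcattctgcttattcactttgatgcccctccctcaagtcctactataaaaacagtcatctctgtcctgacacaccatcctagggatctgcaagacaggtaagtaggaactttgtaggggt
H2-Aa: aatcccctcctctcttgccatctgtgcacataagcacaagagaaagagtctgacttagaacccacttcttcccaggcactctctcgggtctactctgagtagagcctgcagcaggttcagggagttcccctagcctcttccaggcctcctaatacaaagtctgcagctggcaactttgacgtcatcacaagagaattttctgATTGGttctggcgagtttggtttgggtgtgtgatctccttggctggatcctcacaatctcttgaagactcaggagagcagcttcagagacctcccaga
H2-Eb1: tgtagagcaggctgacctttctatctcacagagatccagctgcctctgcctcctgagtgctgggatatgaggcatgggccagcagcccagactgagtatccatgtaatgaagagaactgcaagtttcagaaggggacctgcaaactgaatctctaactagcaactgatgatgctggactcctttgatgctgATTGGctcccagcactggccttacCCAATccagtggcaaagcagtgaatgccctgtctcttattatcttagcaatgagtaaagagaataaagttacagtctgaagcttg

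The Reg3b window held 1 match to TTCNNNGAA, at position -129 from the start, and 8.30% of 32851 promoters of the same length held at least 1. The aligned Reg3b and Reg3g windows were identical at 207 of 296 positions (69.9%), and the Reg3g window held 0 matches. CCAAT or its reverse complement lay at -48 in H2-Aa and at -59 and -35 in H2-Eb1, against 37.4% of all promoters with a match. The motifs do not overlap each other, and a match describes letters only.

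A further pair of sequences concerns mt-Nd3, a subunit of mitochondrial complex I, and its nuclear copy Gm28438 (an unprocessed pseudogene on chromosome 1, 24612775 to 24613119 on the minus strand of GRCm38). The transcripts in GENCODE M21 were identical at 344 of 345 compared positions, and the 1 substitution from mt-Nd3 to Gm28438 is T3C, counted from 1 at the 5′ end. Their first 60 bases are shown with that base in capitals.
mt-Nd3: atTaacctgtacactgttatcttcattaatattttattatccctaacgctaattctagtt
Gm28438: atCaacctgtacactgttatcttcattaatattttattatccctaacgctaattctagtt

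The libraries gave 4326863, 5731437 and 6298535 UMIs in goblet cells, in the order Arid3a cKO 1, Arid3a cKO 2 and WT, which is kept for all series of 3 values below. Median UMIs per goblet cell were 25958, 32965 and 27563, and median mitochondrial shares were 2.45%, 2.31% and 3.99%, highest in WT. No goblet barcode was shared between libraries. Levels are given in CPM, the UMIs of a gene scaled to an equal total of summed goblet UMIs in each library, and since reads come from the 3′ end and each UMI is 1 transcript, no scaling by gene length applies. Intervals are 95% exact intervals and cover counting error only.

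Goblet cells made up 6.56% of the kept cells of Arid3a cKO 1, with an interval of 5.55 to 7.70%. The share was 9.48% for Arid3a cKO 2 (8.07 to 11.1%), and the WT share was 9.21% (7.95 to 10.6%). WT lay between the cKO libraries, which differed from each other by more than their mean differed from WT (-1.19 percentage points), so no difference in abundance beyond the spread of the cKO animals was seen. The hormone gene limit removed 6, 6 and 19 cells that met the marker limit. Close to the marker limit, 6, 7 and 5 members had 1 to 1.2% of their UMIs from the markers, and 12, 7 and 9 kept cells had 0.8 to 1%. The member nearest the limit stood at 1.00% and the nearest kept cell outside it at 0.999%.

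The markers that chose the cells were far above those of the remaining kept cells, as the rule requires. The markers made up a median of 22.5%, 19.4% and 19.5% of the UMIs of a goblet cell, with maxima of 62.1%, 64.7% and 66.3%, against medians of 0.0182%, 0.0159% and 0.0314% in the other kept cells. Zg16 took 7.13%, 7.66% and 7.07% of all goblet UMIs, Tff3 4.57%, 3.98% and 4.30%, Spink4 2.15%, 1.89% and 1.57%, and Fcgbp 1.61%, 1.60% and 1.53%. Agr2, a disulfide isomerase needed for Muc2 folding, took 0.735%, 0.903% and 0.710%, Muc2 itself 0.728%, 0.620% and 0.761%, and Clca1 0.541%, 0.414% and 0.407%. WT lay outside the range of the cKO libraries for every marker but Tff3, furthest for Spink4, and no test was made because the genes set the membership.

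The label fits most but not all members. Of the 463 cells, 41 had at least 5% of their UMIs from 9 genes of Paneth cells, the granule cells of the crypt base that secrete defensins and lysozyme. These Paneth-high barcodes numbered 16, 11 and 14, held 27.3%, 18.8% and 21.4% of the goblet UMIs because they were large (a median of 78153 UMIs), and 29 of them had under 5% from the goblet markers, a median of 1.01% being Spink4 alone. The other 12 carried both gene sets (5.47 to 27.2% goblet and 6.05 to 52.3% Paneth markers). Below that limit, the highest Paneth share of a goblet cell was 2.73%. In addition, 3 barcodes of Arid3a cKO 2 had 7.11 to 41.2% of their UMIs from the stomach genes Tff1, Tff2, Gkn1, Gkn2 and Muc6, and no other goblet barcode reached 1%. Results are therefore given for all members and, where it matters, for the 419 members (124, 133 and 162) without these 44 barcodes, a limit chosen after the data were seen.

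**Figure D1:**
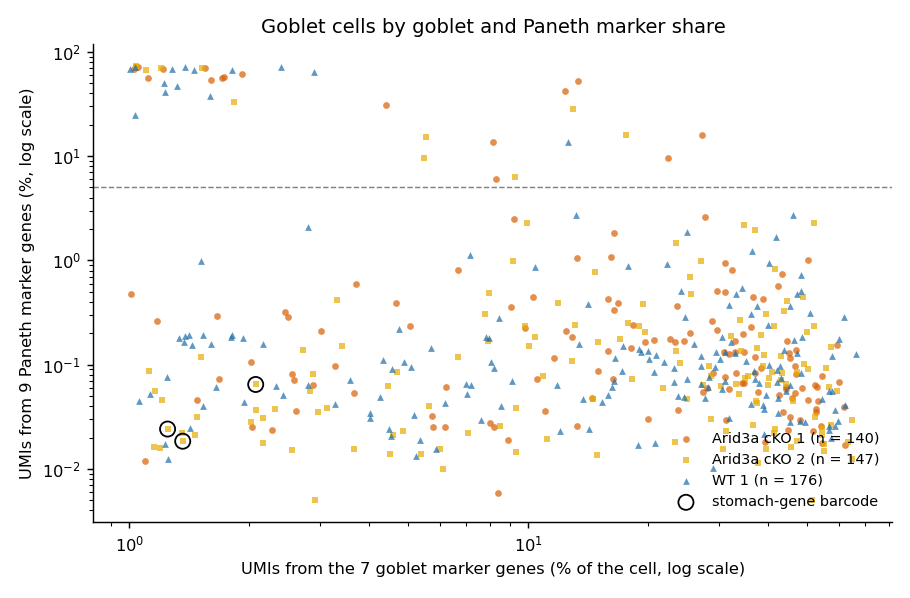
Each point is 1 goblet cell, with the share of its UMIs from the 7 goblet markers on the x axis and from 9 Paneth markers on the y axis (percent, both log scales). Above the dashed line at 5% stand the 41 Paneth-high barcodes, most of them at 1 to 2% goblet markers, and open circles mark the 3 stomach-gene barcodes of Arid3a cKO 2.

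In the 419 members most other marker sums were below those of the other kept cells, some of them by little. The 9 Paneth genes summed to 1678 to 2334 CPM, against 116709 to 149953 CPM with all members included. The 12 enterocyte genes summed to 5559, 11180 and 8076 CPM, under the 35535 to 41502 CPM of the other kept cells. The 10 tuft cell genes summed to 84.2, 35.7 and 75.8 CPM, against 112, 82.5 and 124 CPM in the other kept cells. The 7 stem cell genes summed to 192, 204 and 221 CPM, against 406, 378 and 404 CPM there. Over all members the 11 lymphocyte and myeloid genes summed to 1.05 to 3.47 CPM and 7 of them were at 0 (Cd3e, Cd3g, Cd8a, Gzmb, Nkg7, Cd79a and Tyrobp). The 7 endothelial, stromal and red cell genes summed to at most 0.349 CPM, and 8 further hormone cell genes outside the rule to 3.06 to 5.05 CPM in the 419 members.

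Genes that the rule did not use showed what else sets goblet cells apart. Among genes with at least 100 CPM in every library, the largest smallest-of-3 ratios to the other kept cells belonged to Tpsg1, a membrane-anchored serine protease (218, 192 and 152 CPM, at least 183 times the other cells), Fer1l6, of the ferlin family of membrane fusion proteins (at least 148 times), and Sytl2 (at least 100 times), a Rab27 effector in granule exocytosis. Next came Rep15, a Rab15 effector (251, 251 and 194 CPM), Ido1, which breaks down tryptophan, Ramp1, a co-receptor for the neuropeptide CGRP (258, 231 and 198 CPM), the calcium-binding protein S100a6 (1368, 1399 and 1461 CPM) and the anoctamin Ano7. The list closed with Guca2a, the precursor of guanylin, the chemokines Ccl9 and Ccl6, and Gcnt3, the branching enzyme of mucin O-glycans, whose smallest ratio was 35.4. In the 419 members Bcas1, Atoh1 and Spdef entered this list in place of Ccl9, Gcnt3 and Ccl6. Zg16 UMIs were found in 81.1%, 81.2% and 94.9% of the other kept cells, at summed levels of 84.1, 61.7 and 421 CPM, and the part of such goblet RNA in these ratios was not tested.

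Goblet cells differed widely in how much of their RNA was marker RNA, and this order ran parallel to other genes. Of the 419 members, 20, 29 and 36 had 1 to 5% of their UMIs from the markers, 23, 26 and 27 had 5 to 15%, and 81, 78 and 99 had more. The markers crowd out other transcripts in the last group, where the level of every other gene is lowered in proportion. Because the rule used the markers, levels over these groups are a description with no test.

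Genes of dividing cells were high in the 2 groups up to 15%. Mki67, a protein of cycling cells, stood at 184, 219 and 306 CPM there, at 184, 201 and 195 CPM in the middle group and at 4.49, 20.5 and 15.5 CPM above 15%. Top2a, the topoisomerase of dividing cells, stood at 236, 228 and 196 CPM at 1 to 5%, at 172, 177 and 176 CPM at 5 to 15% and at 7.70, 16.0 and 20.2 CPM above. A Mki67 UMI was in 12 of 20, 19 of 29 and 23 of 36 cells of the first group and in 14 of 23, 17 of 26 and 13 of 27 of the second. The stem and progenitor gene Olfm4 went from 93.2, 124 and 200 CPM to 8.35, 6.99 and 1.29 CPM, and the progenitor factor Sox9 from 119, 88.5 and 104 CPM to 27.0, 28.0 and 14.6 CPM. The Notch ligand Dll1 went from 150, 85.6 and 99.4 CPM to 59.1, 48.5 and 41.7 CPM, whereas its relative Dll4 showed 42.4, 24.1 and 24.4 CPM at the low and 66.8, 51.5 and 48.2 CPM at the high end.

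The goblet regulators were present from the first group on. Atoh1 stood at 80.5, 64.4 and 56.9 CPM in the cells with 1 to 5% and at 156, 154 and 144 CPM in those above 15%. Spdef went from 107, 75.4 and 65.0 CPM to 213, 149 and 154 CPM, Foxa3, a forkhead factor of secretory cells, from 96.0, 84.1 and 70.6 CPM to 245, 243 and 178 CPM, and Klf4, a differentiation factor of goblet cells, from 264, 198 and 206 CPM to 860, 652 and 651 CPM.

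The secreted proteins appeared at different points of this order. Spink4 and Agr2 were near their highest level already at 5 to 15% (Agr2 10520, 15770 and 12806 CPM, against 11396, 13195 and 10906 CPM above 15%). Zg16 went from 583, 2652 and 2406 CPM to 183227, 209383 and 183722 CPM. Among genes outside the rule, Guca2a was at 2134, 2083 and 1807 CPM in the middle group and at 2719, 2628 and 2181 CPM at the top. Ccl6 went from 4.24, 52.7 and 48.1 CPM to 1730, 1780 and 1793 CPM, and S100a6 from 60.7, 105 and 90.0 CPM to 3467, 3591 and 3716 CPM. Ccl9 was highest in the middle, with 457, 558 and 436 CPM against 224, 190 and 108 CPM at the top, and the chloride channel Cftr went from 73.4, 67.3 and 73.1 CPM to 0, 9.99 and 14.2 CPM.

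**Figure D2:**
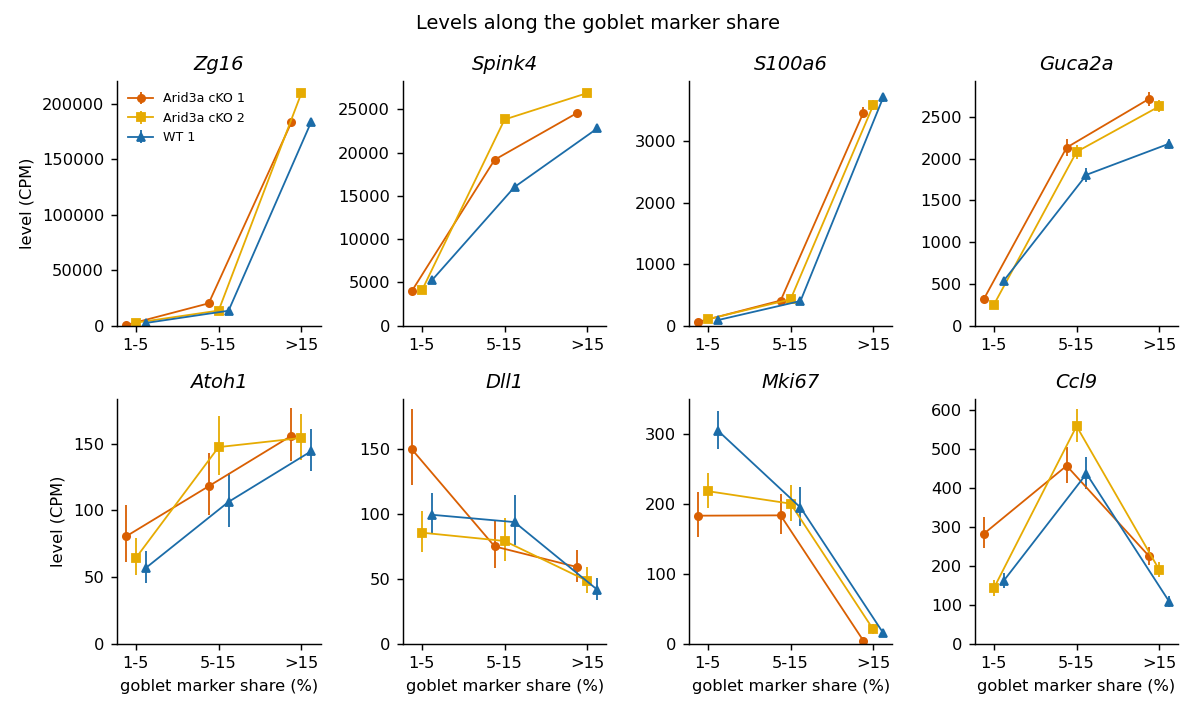
Levels (CPM, y axes from 0) of 8 genes in goblet cells with 1 to 5%, 5 to 15% and above 15% of UMIs from the goblet markers, without the 44 barcodes with Paneth or stomach genes, for each library, with 95% exact Poisson intervals. Zg16 and S100a6 are high mainly in the last group, Guca2a is high from the middle group on, Mki67 is at 20.5 CPM or less in the last, and Ccl9 is highest in the middle.

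Division of goblet cells did not differ clearly between the genotypes. After thinning each cell to 9500 UMIs, which left out 38, 22 and 28 shallower cells, 33 of 102 goblet cells of Arid3a cKO 1 (32.4%, 23.4 to 42.3%), 41 of 125 of Arid3a cKO 2 (32.8%, 24.7 to 41.8%) and 40 of 148 of WT (27.0%, 20.1 to 34.9%) had a UMI of Mki67 or Top2a. All 3 intervals overlapped. Unthinned, the shares were 37.1%, 40.8% and 32.4%, and with the marker limit at 0.5% the cKO mean was below WT (27.3%, 30.0% and 31.1%).

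To check the genotypes, Arid3a was examined first. It had 9, 9 and 30 UMIs in goblet cells, or 2.08 (0.951 to 3.95), 1.57 (0.718 to 2.98) and 4.76 CPM (3.21 to 6.80), in 7.26%, 6.02% and 16.0% of the 419 cells. Both cKO libraries lay below WT, although the counting intervals of Arid3a cKO 1 and WT overlapped. The fitted log2 fold change was -1.40 (SE 0.54) and did not pass the test over all genes (edgeR adjusted p = 0.464). The reads count transcripts near their 3′ end, and the removed part of the gene was not measured apart.

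Few genes were called in goblet cells. With 2 libraries against 1 and 1 residual degree of freedom, a small count of calls does not show that few genes changed. Of 11557 genes tested with edgeR's quasi-likelihood test on the UMIs summed per library, 23 were higher (0.199%) and 38 lower (0.329%) in cKO at an adjusted p under 0.05 (0.528% in either direction), and 864 had an unadjusted p under that value. The test rests on the spread between the 2 cKO libraries and assumes that the single WT library varies like them. DESeq2 called 12 genes, all of them among the 61. Of the 61, 33 were called in the same direction without the 44 barcodes with Paneth or stomach genes, where 10 genes were higher (0.0878%) and 26 lower (0.228%), 0.316% in all.

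Several of the calls belonged to groups of related genes. Those lower in cKO included antimicrobial lectins, class II antigen presentation, genes induced by interferon gamma and heat shock chaperones, beside mt-Nd3, which had the largest fitted fall, and 5 Paneth genes. Regulators of the goblet lineage, mucin glycosylation, protein folding and granule traffic had no called gene in either direction. Of these lists 17, 23, 34 and 17 genes were tested. With 0.528% of all genes called, a count of 0 in lists of this size is near the share over all genes. That share also applies to the other lists given below with 0 calls.

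Reg3b and Reg3g, lectins that bind bacterial cell walls and are secreted into the mucus, were much lower in cKO goblet cells. Reg3b had 27.3 (22.6 to 32.7), 78.3 (71.3 to 85.9) and 590.5 CPM (572 to 610), and its fitted level was 11.2-fold lower in cKO (log2 fold change -3.49, SE 0.28, adjusted p = 1.85e-08). Reg3g had 66.3, 144 and 605 CPM (log2 fold change -2.53, SE 0.24, adjusted p = 2.04e-07). WT was above both cKO libraries for either gene, and the cKO libraries themselves differed by more than their counting intervals. DESeq2 did not call them (adjusted p = 0.743 for Reg3b and 0.867 for Reg3g). Their promoters are those shown above.

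Reg3b and Reg3g are also made by enterocytes, so the enterocyte signal was set beside them. In the other kept cells Reg3b stood at 1138, 724 and 2514 CPM, and the goblet level was 2.40%, 10.8% and 23.5% of that. For the enterocyte gene Apoa1 the goblet level was 8.83%, 19.1% and 21.1% of that in the other kept cells. The same ratio was 6.76%, 20.4% and 13.3% for Fabp1 and 9.24%, 6.44% and 8.90% for S100g. These enterocyte genes differed in which library was highest. The part of enterocyte RNA in the Reg3b and Reg3g levels was not tested. In goblet cells with more than 15% marker RNA, Reg3b was at 8.99, 7.99 and 647 CPM and Reg3g at 19.3, 11.0 and 506 CPM, while the 12 enterocyte genes summed to 3541, 3755 and 4187 CPM. In WT, 71.6% of the 419-member set's goblet cells had a Reg3b UMI, against 26.6% and 18.8% in the cKO libraries, and the cell with the most gave 22.7% of the WT UMIs. A test of whether the change differed between goblet and other kept cells gave a log2 value of -2.07 for Reg3b (adjusted p = 0.225) and -1.15 for Reg3g (adjusted p = 0.364), so a difference between the cell classes was not shown.

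Of the other antimicrobial and host defence genes, Lyz1 (lysozyme) and Pla2g2a (a phospholipase of Paneth granules) were called higher, and 8 of the 12 tested genes were not called. Over all genes 0.199% were called higher. Lyz1 had 14305, 11010 and 7098 CPM with all members and 203, 260 and 224 CPM without the 44 barcodes, where it was not called. Pigr, which carries antibodies across the epithelium, had 1166, 1321 and 1488 CPM, and Reg1, a lectin mostly of other cells, 607, 773 and 629 CPM.

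Class II antigen presentation genes, which load and display peptides to helper T cells and are induced by interferon gamma, were mostly lower in cKO. Of 8 tested, 6 were lower, 0 higher and 2 not called, against 0.329% of all genes called lower. The median log2 ratio was -1.09 over the list against 0.00 over all genes tested. Cd74, the invariant chain, had 12.2 (9.18 to 16.0), 11.5 (8.91 to 14.7) and 177 CPM (167 to 188), a log2 fold change of -3.90 (SE 0.18, adjusted p = 8.51e-14), and DESeq2 called it too. H2-Eb1 had 3.24, 2.27 and 25.6 CPM (log2 fold change -3.24, SE 0.29) and H2-Ab1 31.4, 28.8 and 66.7 CPM (log2 fold change -1.15, SE 0.17). H2-Aa, with 3, 2 and 55 UMIs, H2-DMa and H2-DMb1 were the other genes called. The thiol reductase Ifi30 (142, 185 and 151 CPM) and the protease Ctss (14.8, 16.4 and 18.4 CPM) were not called. The same 6 genes were lower without the 44 barcodes, but H2-Ab1 and H2-DMa each lost the call under at least 1 other alternative.

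WT had the higher Cd74 level in all 3 groups of marker share, by different amounts. WT cells with 1 to 5% marker RNA had 384 CPM and those above 15% had 63.6 CPM, against 24.0 and 24.1 CPM and 3.85 and 0.999 CPM in the cKO libraries. Several WT cells with 1 to 5% marker RNA were alike, with 1.34 to 2.17% goblet marker and 2.97 to 3.68% enterocyte gene UMIs. In sum the enterocyte genes stood at 11246, 21122 and 6983 CPM in that group, lowest in WT. Single cells of the cKO libraries there held larger shares, up to 10.5% in Arid3a cKO 1 and 14.3% in Arid3a cKO 2. Counted by cell over the 419 members, 3, 11 and 19 had at least 2% enterocyte gene UMIs, most in WT. The part of enterocyte RNA in the Cd74 and other levels of cells with 1 to 5% marker RNA was not tested. A Cd74 UMI was found in 44.4% of WT cells and in 12.1% and 14.3% of cKO cells. H2-Ab1 differed less at the top, with 57.1, 51.5 and 64.1 CPM above 15%. The 11 lymphocyte and myeloid genes summed to 3.47, 1.05 and 3.18 CPM in goblet cells, where 7 of them were at 0. In the other kept cells they summed to 4.75, 16.5 and 26.2 CPM, highest in WT. The part of immune cell RNA in the Cd74 levels was not tested. Cd74 fell further in goblet cells than in the other kept cells, which had 58.1, 40.3 and 320 CPM (class by genotype log2 value -1.21, SE 0.17, adjusted p = 0.0254).

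Some genes induced by interferon gamma were lower as well. In the list that joins them with class I antigen presentation, 8 of 23 tested were lower, 0 higher and 15 not called. Over all genes 0.329% were called lower. The median log2 ratio of the list was -0.50. In both cKO libraries 20 of its 23 genes lay below 0, against 3911 of 11557 of all genes. Among the called genes were Ido1, the immunity-related GTPases Igtp and Irgm2, the peptide transporter Tap1, the immunoproteasome subunits Psmb8 and Psmb9, and the nucleic acid sensor Zbp1. Psmb8 had 78.3, 86.5 and 146 CPM (log2 fold change -0.83, SE 0.17) and Psmb9 38.6, 45.2 and 79.1 CPM (log2 fold change -0.92, SE 0.16). The abundant class I genes H2-K1 (412, 457 and 567 CPM) and B2m (348, 397 and 519 CPM) had WT highest and were not called. DESeq2 called none of the 8, and 7 remained lower without the 44 barcodes, Zbp1 being the exception.

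Ido1 is the gene of this group that belongs most to goblet cells. It had 159 (147 to 171), 100.1 (92.1 to 109) and 288 CPM (275 to 302) there, against 0.435, 0.400 and 3.88 CPM in the other kept cells, and a log2 fold change of -1.15 (SE 0.21, adjusted p = 0.0047). It came almost wholly from cells with more than 15% marker RNA, at 412, 273 and 760 CPM, in contrast to 1.41, 10.2 and 23.1 CPM in those with 1 to 5%. The cells with a UMI were 31.5%, 27.8% and 46.9%, and no cell gave more than 10.7% of a library's Ido1 UMIs. The fitted fall in the other kept cells was steeper (class by genotype log2 value 2.04, SE 0.23, edgeR adjusted p = 0.00618). Ido1 was rare in those cells, where the 7 goblet markers summed to 625, 565 and 1419 CPM. The part of goblet RNA in their Ido1 level was not tested. The call was lost with DESeq2 (adjusted p = 1.00).

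Type I and III interferon genes, which respond to viruses, had a smaller median shift. Of 13 tested, 1 was lower (Parp14, with 19.2, 17.8 and 34.5 CPM) and 12 were not called. Over all genes 0.329% were called lower. The median log2 ratio was -0.14 (-0.261 and -0.00627 in the 2 cKO libraries), and -0.40 with every cell weighted equally. In both cKO libraries 6 of 13 lay below 0 and 0 above, against 3911 and 3859 of 11557 of all genes. Ifi27l2b had 986, 1043 and 1041 CPM and Irf7 37.7, 34.9 and 40.3 CPM. Parp14 was not called without the 44 barcodes. Ifi27l2a, in no list, was higher in cKO but rare, at 4.85, 6.11 and 0.318 CPM.

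Of 16 heat shock chaperones tested, which refold proteins in the cytosol, 3 were lower and 13 were not called, against 0.329% of all genes called lower. The median log2 ratio was -0.41, and 15 of 16 lay below 0 in both cKO libraries, as did 3911 of 11557 of all genes. Hsph1, a co-chaperone of the Hsp70 family, had 18.5 (14.7 to 23.0), 19.9 (16.4 to 23.9) and 77.5 CPM (70.8 to 84.7) and was 4.03-fold lower in the fit (log2 fold change -2.01, SE 0.17, adjusted p = 2.95e-08). Hspa8, the constitutive Hsp70, had 436, 544 and 888 CPM, and Dnaja1, an Hsp40, 112, 127 and 204 CPM. Hsph1 was below WT in each group of marker share (45.2, 44.6 and 168 CPM at 1 to 5%, and 7.70, 6.99 and 34.8 CPM above 15%). DESeq2 called Hsph1 and Hspa8. In the other kept cells Hsph1 stood at 28.4, 37.7 and 118 CPM, and the class by genotype term did not pass (adjusted p = 0.848). The most abundant gene, Hsp90ab1 (1158, 1246 and 1501 CPM), was not called.

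The chaperones of the endoplasmic reticulum were set beside them. Of 34 genes for folding and the unfolded protein response, 0 were called in either direction and the median log2 ratio was -0.01. In both cKO libraries 12 of 34 lay below 0 and 13 above, against 3911 and 3859 of 11557 of all genes. Hspa5, the main chaperone there, was below WT in both cKO libraries, with 818, 1021 and 1160 CPM. Calr had 624, 781 and 782 CPM, and Selenom, a selenoprotein, 853, 836 and 642 CPM. Xbp1, the factor that expands the secretory apparatus, had 186, 194 and 178 CPM, and Ern2, the stress sensor of mucus cells, 109, 94.0 and 81.8 CPM.

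**Figure D3:**
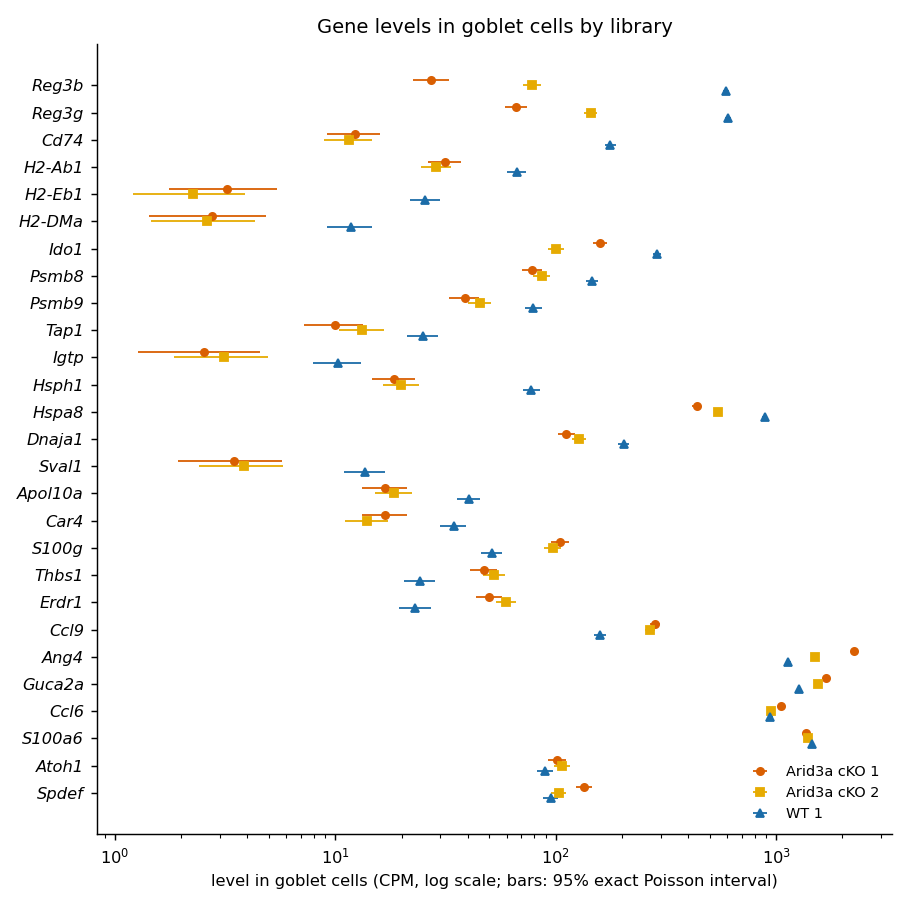
Levels (CPM, log scale) of 27 genes in goblet cells of each library, with 95% exact Poisson intervals. From Reg3b to Car4 both cKO libraries sit left of WT, from S100g to Guca2a they sit right of it (Ang4 and Guca2a were not called), and the goblet genes from Ccl6 to Spdef lie close together.

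Of 13 tested genes of goblet cargo outside the rule, 2 were called higher (Ccl9 and Tff1), 1 lower (Sval1) and 10 not called. Over all genes 0.199% were called higher and 0.329% lower. The median log2 ratio was 0.35, and 0.0145 without the 44 barcodes. In both cKO libraries 6 of 13 lay above 0 and 3 below, against 3859 and 3911 of 11557 of all genes. Guca2a had 1690, 1551 and 1269 CPM, S100a6 1368, 1399 and 1461 CPM, Ccl6 1050, 947 and 940 CPM, and Lypd8, which keeps flagellated bacteria from the surface, 2596, 2791 and 2753 CPM. Ccl9 had 282 (267 to 298), 268 (255 to 282) and 160 CPM (150 to 170) with a log2 fold change of 0.79 (SE 0.18, adjusted p = 0.039), which was not called without the 44 barcodes (302, 273 and 194 CPM). Sval1, a seminal vesicle antigen-like secreted protein, had 15, 22 and 86 UMIs, or 3.47, 3.84 and 13.7 CPM, and 1 WT cell gave 46.5% of the WT UMIs.

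The remaining cargo shows how few cells can carry a gene. Tff1 had 404 CPM in Arid3a cKO 2 and 0 UMIs elsewhere, and 2.85 CPM without the 44 barcodes, where it was too rare to be tested. Gkn1, Gkn2 and Muc6, genes of stomach mucous cells, were called higher with all members, were at 0 UMIs in Arid3a cKO 1 and WT, and were not tested either without the 44 barcodes. Gkn3, a stomach gene that the intestine also expresses in crypt base cells, had 28.0, 342 and 19.4 CPM and was still called higher without the 44 barcodes (26.7, 52.3 and 18.2 CPM, log2 fold change 1.17, SE 0.27, edgeR adjusted p = 0.0495), but DESeq2 did not call it with all members (adjusted p = 1.00). Itln1 (8185, 5505 and 4542 CPM) and the ribonuclease Ang4 (2265, 1505 and 1138 CPM) are shared with Paneth cells and dropped to 522, 248 and 277 CPM and to 540, 132 and 241 CPM without the 44 barcodes. Retnlb, a goblet product induced by type 2 cytokines, had 33, 4 and 22 UMIs in the 419 cells, and 1 cell gave 97.0% of those of Arid3a cKO 1.

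Among transmembrane mucins 0 of 3 tested genes were called, and Muc13 had 684, 711 and 832 CPM. Mucin glycosylation and sulfation had 0 calls in 23 tested genes and a median log2 ratio of 0.03. Its most abundant members were Galnt7, which starts O-glycans (229, 238 and 199 CPM), Gcnt3 (171, 199 and 168 CPM) and the sulfate transporter Slc26a2 (165, 141 and 169 CPM). Granule traffic had 0 calls in 17 genes, with the actin-severing Scin at 407, 279 and 223 CPM, Rep15 as given above and the SNARE protein Vamp8 at 190, 212 and 205 CPM. Ion transport and mucus release had 0 calls in 14 genes, led by Slc12a2 (206, 166 and 167 CPM), Slc12a8 (193, 178 and 158 CPM) and the calcium pump Atp2a3 (174, 160 and 163 CPM).

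Secretory lineage regulators had 0 calls in 17 genes and a median log2 ratio of 0.06. Atoh1 had 101, 107 and 89.4 CPM, Spdef 135, 103 and 94.9 CPM, Klf4 492, 393 and 373 CPM and Foxa3 147, 147 and 109 CPM. Neurog3, the factor that commits cells to the hormone lineage, was called lower with 6.47, 3.49 and 14.4 CPM, but its UMIs came from 3, 1 and 4 cells. Type 2 cytokine receptors and response had 0 calls in 7 genes, and Il13ra1 and Stat6 had 36.5, 40.5 and 37.3 CPM and 24.5, 23.2 and 27.3 CPM. Proliferation had 0 calls in 20 genes, led by Hmgb2 (385, 495 and 427 CPM), Stmn1 (192, 230 and 183 CPM) and Ube2c (146, 124 and 126 CPM). The HNF factors and Arid3 family had 0 calls in 6 genes, with Hnf4a at 96.6, 99.6 and 121 CPM.

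Immediate early genes, which rise within minutes of handling or stimulation, had 0 calls in 16 genes and a median log2 ratio of 0.30. In both cKO libraries 15 of 16 lay above 0, as did 3859 of 11557 of all genes. Jun had 1092, 996 and 868 CPM, Fos 928, 941 and 769 CPM and Jund 773, 753 and 602 CPM. Of 7 enterocyte villus tip genes 0 were called, with Apoa4 at 202, 473 and 311 CPM, Krt20 at 223, 255 and 275 CPM and Enpp3 at 59.9, 45.7 and 56.0 CPM. Of 5 transcripts that mark RNA quality, Mir6236 was called higher (67.9, 41.4 and 26.2 CPM), and the ribosomal RNA-like Gm42418 stood at 26068, 16006 and 26924 CPM, Malat1 at 4084, 4136 and 4669 CPM and Neat1 at 640, 484 and 564 CPM. The part of these transcripts and of the higher mitochondrial share of WT in the results was not tested.

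**Figure D4:**
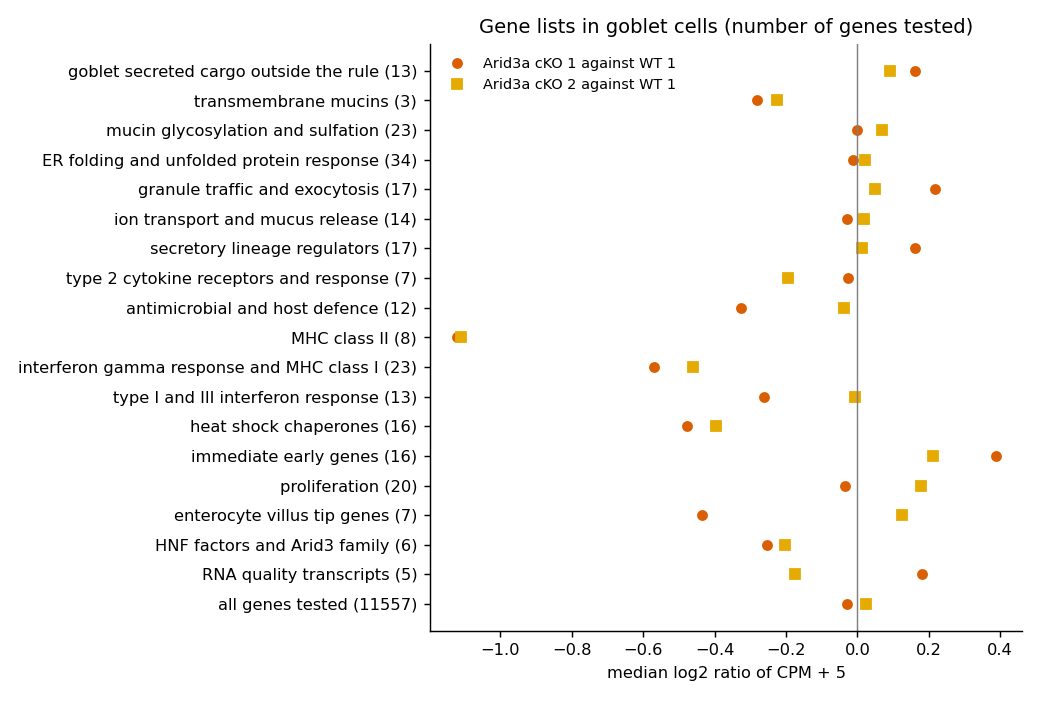
Median log2 ratio of CPM + 5 against WT over the tested genes of each list, for Arid3a cKO 1 (circles) and Arid3a cKO 2 (squares), beside all genes tested in the last row. MHC class II lies near -1.1 in both libraries, interferon gamma and heat shock genes lie below -0.3, and most goblet lists lie within 0.2 of 0.

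Among single genes outside the lists, some enterocyte genes appear in goblet sums. S100g, a calcium-binding protein of absorptive cells, was called higher with 104, 96.8 and 51.3 CPM (log2 fold change 0.97, SE 0.18, adjusted p = 0.00797). The difference lay in cells with 5 to 15% marker RNA (298, 316 and 43.0 CPM), whereas those above 15% had 67.4, 39.5 and 57.6 CPM, and 1 cell gave 45.0% of the S100g UMIs of Arid3a cKO 2. S100g stood at 1131, 1503 and 576 CPM in the other kept cells. Car4, a carbonic anhydrase of villus cells (16.87, 13.96 and 34.45 CPM), Apol10a (16.9, 18.5 and 40.3 CPM) and the peptidase Enpep (14.56, 24.95 and 40.01 CPM) were called lower. Thbs1, a matrix glycoprotein, was called higher (47.1, 52.3 and 24.1 CPM), as were the kinase Pim3 (55.2, 40.7 and 24.8 CPM) and Erdr1 (49.9, 59.7 and 23.0 CPM). Pim3 and Enpep were not called without the 44 barcodes, where the others were. S100g, Car4, Apol10a, Thbs1 and Erdr1 each lost the call under at least 1 other alternative.

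**Figure D5:**
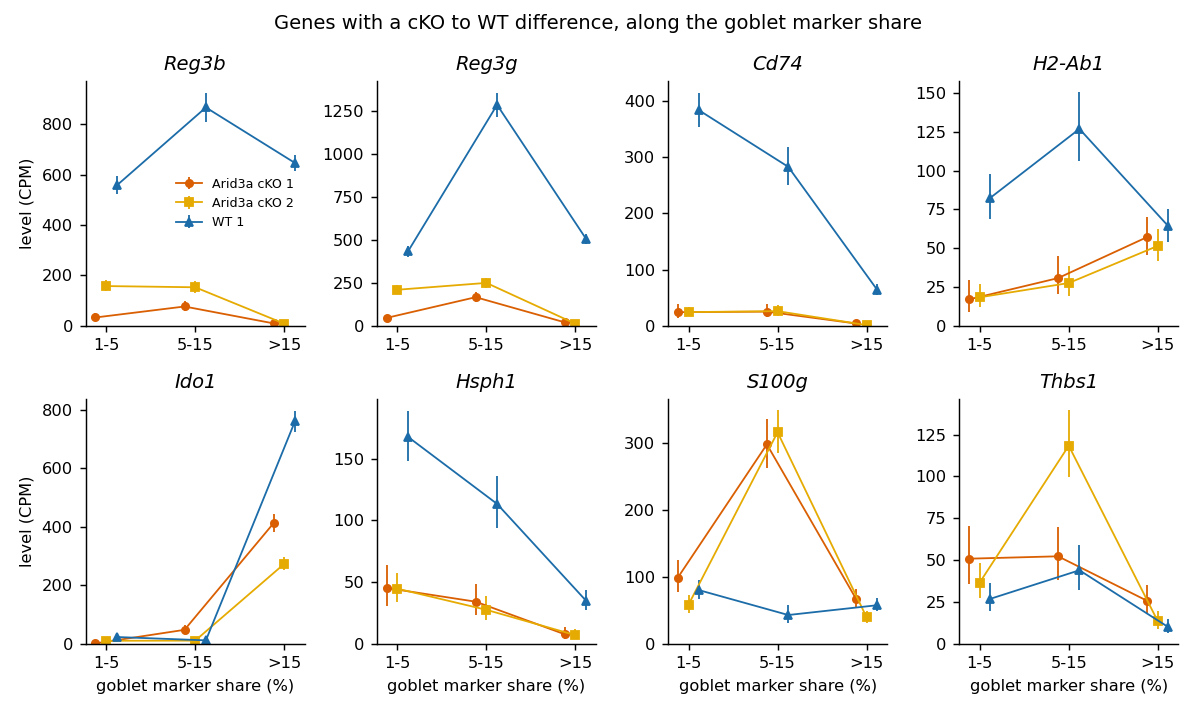
Levels (CPM, y axes from 0) of 8 genes called in goblet cells, by share of marker RNA (percent) and library, without the 44 barcodes, with 95% exact Poisson intervals. Reg3b, Reg3g, Cd74 and Hsph1 are higher in WT in all 3 groups, Ido1 is highest above 15% in every library, and S100g differs at 5 to 15%.

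A large change lay in mt-Nd3, with 4.62, 5.58 and 141 CPM, mirrored by Gm28438 with 39.5, 41.7 and 0 CPM. With 0 UMIs in WT against a floor of 3 UMIs there, the level assigned to Gm28438 was at least 83.0-fold higher in cKO. Whether these UMIs came from the pseudogene or from the mitochondrial gene was not tested. Since these transcripts differ by the single base shown above, the split of reads between them is uncertain, and their sum was 44.1, 47.3 and 141 CPM. The same pattern stood in the other kept cells, where mt-Nd3 had 8.54, 10.8 and 292 CPM and Gm28438 98.1, 76.5 and 0.0709 CPM. Another mitochondrial gene, mt-Nd6, was called lower as well (17.1, 18.3 and 32.7 CPM), though not without the 44 barcodes, and the mitochondrial share was highest in WT.

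Genes of Paneth cells were called in both directions with all members. Defa30 (26520, 20698 and 44804 CPM), Defa23, Defa3, Defa-ps6 and Gm14851 were lower and Lyz1, Pla2g2a, Defa20 and Defa28 higher, and 0 of these 9 were called without the 44 barcodes, where Defa20, Defa28, Defa23 and Defa-ps6 were too rare to be tested. Defensin genes are near-identical copies of each other, so the assignment of reads among them is uncertain.

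By size alone, 1 of 4612 genes with a mean of at least 20 CPM was at least 2-fold higher in both cKO libraries (0.0217%) and 7 were lower (0.152%). The gene that was higher was Gm28438, and those lower were Hsph1, Reg3b, Reg3g, Defa23, Defa-ps6, Cd74 and mt-Nd3. Without the 44 barcodes, Erdr1 joined the higher genes (0.0389% of 5147) and the 2 defensin genes left the lower ones (0.0971%).

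Whether the change in goblet cells differed from that in the other kept cells of the same libraries was tested gene by gene. Of 15771 genes, 9 had a higher cKO to WT ratio in goblet cells (0.0571%) and 5 a lower one (0.0317%), 0.0888% in all. Higher were Ido1, the regulator of G protein signalling Rgs2 (80.0, 86.5 and 61.8 CPM in goblet cells and 8.26, 9.06 and 16.6 CPM in others) and the protease Bace2 (101, 98.2 and 67.5 CPM, and 1.40, 1.28 and 2.16 CPM in others). For these genes the level in the other kept cells was highest in WT, as was that of the 7 goblet markers there, which summed to 625, 565 and 1419 CPM. The part of goblet RNA among the other kept cells in these terms was not tested. Lower were Cd74, Prap1, an enterocyte protein (526, 776 and 768 CPM in goblet cells and 3903, 4812 and 3285 CPM in others), and the defensin genes Defa30, Gm14851 and Defa-ps6. The counts moved strongly with the choice of cells: without the 44 barcodes, 68 genes were higher (0.43%) and 61 lower (0.386%), 0.815% of 15819 in all.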

How the data were processed

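Per the labels and the methods, the authors sorted the cells, sequenced 10x 3′ libraries and counted reads with CellRanger 5.0. The values deposited by the authors are unnormalised UMI counts for each gene in each barcode. The processing notes list Cell Ranger, GRCh38 and hg19, whereas the gene identifiers are those of mouse, so the build used for counting is not given in the sources used here. Coordinates are from GENCODE M21 (GRCm38), matched by identifier. Groups follow the genotype labels (2 cKO, 1 WT).

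UMIs were summed per library over goblet cells and tested with edgeR 4.0.16 (R 4.3.3; TMM scaling, filterByExpr, quasi-likelihood F test, 1 residual degree of freedom, Benjamini-Hochberg adjusted p under 0.05, the 15 rule genes untested), after a check on simulated data. DESeq2 1.42.0 was an alternative. The class by genotype term had library as a block. Log2 ratios used CPM + 5. Shares have exact binomial and levels exact Poisson intervals. Doublets were kept. An alternative left out the 5% of cells with the highest Scrublet scores (scanpy 1.11.5). The labels call the libraries biological replicates without naming animals, and p-values measure the spread between the cKO libraries only. Members and lists were chosen with earlier results of these data known.

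Named genes were Arid3a, the 7 markers, the called members of each of 18 lists or otherwise up to its 3 most abundant, up to 12 called genes per direction with at least 20 CPM (the 5 with the smallest p where fewer than 5 were called), up to 5 per direction for the class by genotype term, and up to 12 genes at 100 CPM or more with the largest ratios to other cells. Other genes were named after their values were seen, and 1 gene that the rule names is not reported here.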

Additional observations from a re-analysis of the deposited data

Results flagged for a closer look

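Each result here was marked because the cKO to WT difference in goblet cells differed from that in the other kept cells of the same libraries by the class by genotype test (edgeR, adjusted p under 0.05). The value is the log2 difference between the 2 log2 fold changes, goblet minus other. The part of goblet RNA in the levels of the other cells was not tested. Ido1, a tryptophan-degrading enzyme, had 2.04 (adjusted p = 0.00618), since its level was lower in cKO in both cell classes and by more in the other cells, where it was rare. Rcn1, a calcium-binding protein of the secretory pathway, had 1.55 (adjusted p = 0.0283), with 31.9, 25.6 and 20.5 CPM in goblet cells and 2.81, 2.40 and 5.59 CPM in others. Rgs2 had 1.33 (adjusted p = 0.00212) and Bace2 1.22 (adjusted p = 0.0352). Spp1 had 18.0, a fitted value that is no measure of size because goblet cells held 0, 10.3 and 0 CPM and none without the Paneth-high and stomach-gene barcodes. Cd74, the invariant chain of class II, had -1.21 (adjusted p = 0.0254), as it fell more in goblet cells. Prap1 had -0.70 (adjusted p = 0.0142). The Paneth genes Defa-ps6, Defa30 and Gm14851 had -2.08, -0.96 and -0.56, and their goblet levels come from the Paneth-high barcodes.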

How the results depend on the processing

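No paired analysis was possible because WT has a single library, so that cKO and WT have just replicate 1 in common. With 1 WT library and 2 cKO libraries, every test takes its spread from the cKO pair, and genes under about 5 CPM are understated on the log2 ratio scale. The alternative without the 44 Paneth-high and stomach-gene barcodes was chosen after seeing the data.

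Counts of genes called in goblet cells were 23 higher and 38 lower. They were 4 and 8 with DESeq2, 7 and 25 with a filter of at least 10 UMIs only, 44 and 107 with markers at 2% or more, 45 and 62 with at least 500 genes and at most 25% mitochondrial UMIs, 14 higher with markers at 0.5% or more, 96 lower without the 5% highest doublet scores, and 10 higher without the 44 barcodes. RLE scaling gave 23 and 38 again. For the class by genotype term the counts were 9 and 5, and 2 and 1 with DESeq2, 89 and 106 with at least 10 UMIs, 5 and 2 at 0.5%, 126 and 202 at 2%, 25 and 9 with hormone cell genes under 0.1%, 75 and 54 with the wider cell limits, 121 and 377 without the highest doublet scores, and 68 and 61 without the 44 barcodes. The cause of these shifts was not tested.

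Genes past 2-fold in both cKO libraries were 1 higher and 7 lower. They were 2 and 13 at 2%, 2 and 11 without the highest doublet scores, 2 higher without the 44 barcodes, with every cell weighted equally, with a pseudocount of 1 CPM and with at least 10 CPM, and 7 to 8 higher and 14 to 24 lower with 1 cKO library left out, where a single library has to pass.

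The difference in the share of goblet cells with Mki67 or Top2a was 5.55 percentage points and ranged from -2.50 at 0.5% to 7.43 with hormone cell genes under 0.1%. It was 7.31 at 2%, 6.02 with the wider cell limits, 0.66 without the highest doublet scores, 4.39 without the 44 barcodes and 6.59 as counted. The difference in the goblet share of kept cells was 0.27 without Arid3a cKO replicate 1 and -2.65 without Arid3a cKO replicate 2.

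List medians kept their sign for MHC class II (-1.21 at 0.5%, -0.94 at 2%, -1.19 without the 44 barcodes and -2.05 with a pseudocount of 1 CPM) and for interferon gamma and class I genes (-0.72 with every cell weighted equally and -0.65 with a pseudocount of 1 CPM). With every cell weighted equally, type I and III interferon genes had -0.40, immediate early genes 0.42, HNF factors and the Arid3 family -0.36, mucin glycosylation -0.0652 and type 2 response genes -0.10. At 2%, goblet cargo had -0.0553, type 2 response genes -0.11, proliferation 0.42 and the HNF and Arid3 list -0.135. Goblet cargo had 0.0145 without the 44 barcodes, mucin glycosylation -0.0272 at 0.5%, and the HNF and Arid3 list -0.29 without the highest doublet scores. With 1 cKO library left out, granule traffic ranged from 0.0486 to 0.218 and type 2 response genes from -0.196 to -0.0273.

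Of the called named genes, Lyz1 changed direction at 2% (log2 fold change -0.0942). Cd74, mt-Nd3, Gm28438, H2-Eb1 and Hsph1 were called under all 9 alternatives run on them.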

Other observations

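Barcodes that failed the limits on genes or mitochondrial UMIs also met the goblet rule in part: 109 of 4711 in Arid3a cKO 1 (2.31%, 1.90 to 2.78%), 86 of 5343 in Arid3a cKO 2 (1.61%, 1.29 to 1.98%) and 782 of 9906 in WT (7.89%, 7.37 to 8.44%). Their median mitochondrial shares were 32.5%, 36.6% and 33.5% and their median UMIs 868, 1312.5 and 720.5. Their median marker shares were 1.91%, 3.19% and 1.52%, lowest in WT, with the limit of the rule at 1%. The WT library thus held many more low-quality barcodes that met the rule, and the share of goblet cells among kept cells does not count them. Median marker shares of the other kept cells were 0.0182%, 0.0159% and 0.0314%, also highest in WT. The part of background goblet RNA in the low-quality barcodes was not tested.

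Some mucus genes were at or near 0 UMIs in goblet cells of all libraries. St6galnac1, which adds sialic acid to mucins, and Best2 had 0 CPM in all 3, and B3gnt6, an enzyme of core 3 glycans, had 0.231, 0.174 and 0 CPM. Fut2 had 0.462, 0.523 and 0.476 CPM. Whether the 3′ ends of these genes are covered by the annotation used for counting was not examined.

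The hormone gene Sct was found in goblet cells of all libraries at 143, 205 and 188 CPM, below the rule's limit. Gip had 5.08, 1.92 and 79.5 CPM, highest in WT, where the other kept cells also held the most (188, 405 and 790 CPM). Both genes are part of the rule and are given without a test.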
